A study of Drosophila melanogaster with 9 samples.

Results

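The data are RNA counts of 6 genes for a nuclear repressor complex that acts on Notch target genes: the overexpressed gene *insb* (Insb, listed in the count table under its older name *CG6520*), its relative in function *insv* (Insensitive), *Su(H)* (Suppressor of Hairless), *H* (Hairless), *gro* (Groucho) and *CtBP* (C-terminal Binding Protein). They were picked by name from the 14560 genes of the table, and all 6 passed the filter on low counts that left 10799 genes for testing. Larval brains of the genotype *brat11/Df(2L)Exel8040* were sequenced after 0, 9 or 18 hr of Insb overexpression, with 3 replicates per time. Loss of *brat*, which encodes a translational repressor, fills these brains with extra type II neuroblasts, the neural stem cells that normally give rise to intermediate neural progenitors (INPs). The larvae of every group, 0 hr included, carried *2xTub-Gal80ts*, *Wor-Gal4* and *UAS-insb*, and the text of the study names the driver as *Wor-Gal4,AseGal80*, a combination active in type II neuroblasts only. Larvae of the 0 hr group stayed at 25 °C, while those of the 9 hr and 18 hr groups spent their last 9 or 18 hr at 33 °C, where Gal80ts no longer blocks Gal4. No brains at 33 °C without the *UAS-insb* transgene are analysed here, so the time at 33 °C and the time of overexpression cannot be told apart. Each sample was a pool of whole brains, so fewer cells of a type and less RNA per cell cannot be told apart either.

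Su(H) is the DNA-binding protein through which Notch acts: with the Notch intracellular domain and Mastermind it activates target genes, and without them it is held in a repressor complex. Hairless binds Su(H) and brings in Groucho and CtBP, general co-repressors that carry no sequence-specific DNA-binding domain of their own. Insensitive is a BEN-domain protein that binds Su(H) and represses Notch targets in the peripheral nervous system, and Insb is a nuclear protein that the study describes as an inhibitor of Notch signaling effectors.

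The library totals lay between 26533845 and 37109356 counts, and values are given as CPM, a gene's count relative to the total of its library after scaling by the trimmed mean of M-values (TMM). All type II neuroblast and INP markers examined were present in every library. Across all genes, 564 were lower and 715 higher after 9 hr than at 0 hr at a Benjamini-Hochberg adjusted p under 0.05 in edgeR's quasi-likelihood test, 81 were lower and 98 higher after 18 hr than at 0 hr, and 1 gene, the transcription factor gene *D*, was higher at 18 hr than at 9 hr. Replicates 2 and 3 of the 9 hr group were nearly identical: the median chi-square per gene was 0.812, against 2.03 to 6.26 in the other 8 pairs of replicates. Sampling noise alone would give 0.455 with each read pair counted once and 0.91 with both reads counted. Which of these applies is not given in the sources used here. Over the 6 genes the summed chi-square was 2.95 in the pair of 9 hr replicates 2 and 3, against 12.9 to 199.6 in the other pairs of replicates. They were counted as 1 sample in every mean ± SD, so that n = 2 at 9 hr and n = 3 at 0 hr and 18 hr. The main fit kept them as separate libraries, so its p-values, SEs and intervals treat them as independent. Results are also given from a fit with the pair summed. Replicate 1 of the 18 hr group stood apart through RNA of other tissues. Its 4 fat body markers summed to 751 CPM, against 11.02 CPM in the lowest 18 hr library, up to 275 CPM at 9 hr and up to 119 CPM at 0 hr. Its 4 muscle markers summed to 38.6 CPM, against up to 8.31 CPM at 9 hr and up to 13.98 CPM at 0 hr. Replicate 1 of the 18 hr group was the lowest of its group for 5 of the 6 genes, the exception being *Su(H)*. At 9 hr each of the 4 fat body markers was higher in replicates 2 and 3 than in replicate 1.

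*insb* is a short gene with a single exon of 1059 bases on the minus strand of chromosome 2R (FBgn0034224, dm6 17475214 to 17476272). Because the counts are per gene, reads of the transgene and of the resident gene are added together. It was already read in the uninduced brains, at 32.9, 32.5 and 36.9 CPM in the 3 libraries of 0 hr. After 9 hr it stood at 369, 389 and 396 CPM, and after 18 hr at 310, 342 and 359 CPM. The 3 groups did not overlap, with 0 hr far below the others and every 18 hr library below every 9 hr library. The induced level was 11.3-fold the 0 hr level after 9 hr (95% interval 9.93 to 12.8, log2 fold change 3.49 ± 0.08 SE, adjusted p = 4.157e-07 in edgeR's quasi-likelihood test). After 18 hr it was 9.87-fold (8.71 to 11.2, log2 fold change 3.30 ± 0.08 SE, adjusted p = 6.186e-07). Leaving out any one of the compared libraries, 18 hr replicate 1 included, gave log2 fold changes of 3.46 to 3.55 (9 hr) and of 3.26 to 3.36 (18 hr). By p-value *insb* was rank 1 of the 10799 genes in both comparisons, and by log2 fold change it was rank 22 at 9 hr and rank 23 at 18 hr. This is the check of the labels: all 6 libraries labelled as induced were high and all 3 labelled as 0 hr were low. The 18 hr level was 0.876-fold the 9 hr level (0.781 to 0.982), with an unadjusted p of 0.0281 and an adjusted p of 0.407 in edgeR's quasi-likelihood test.

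**Figure D1:**
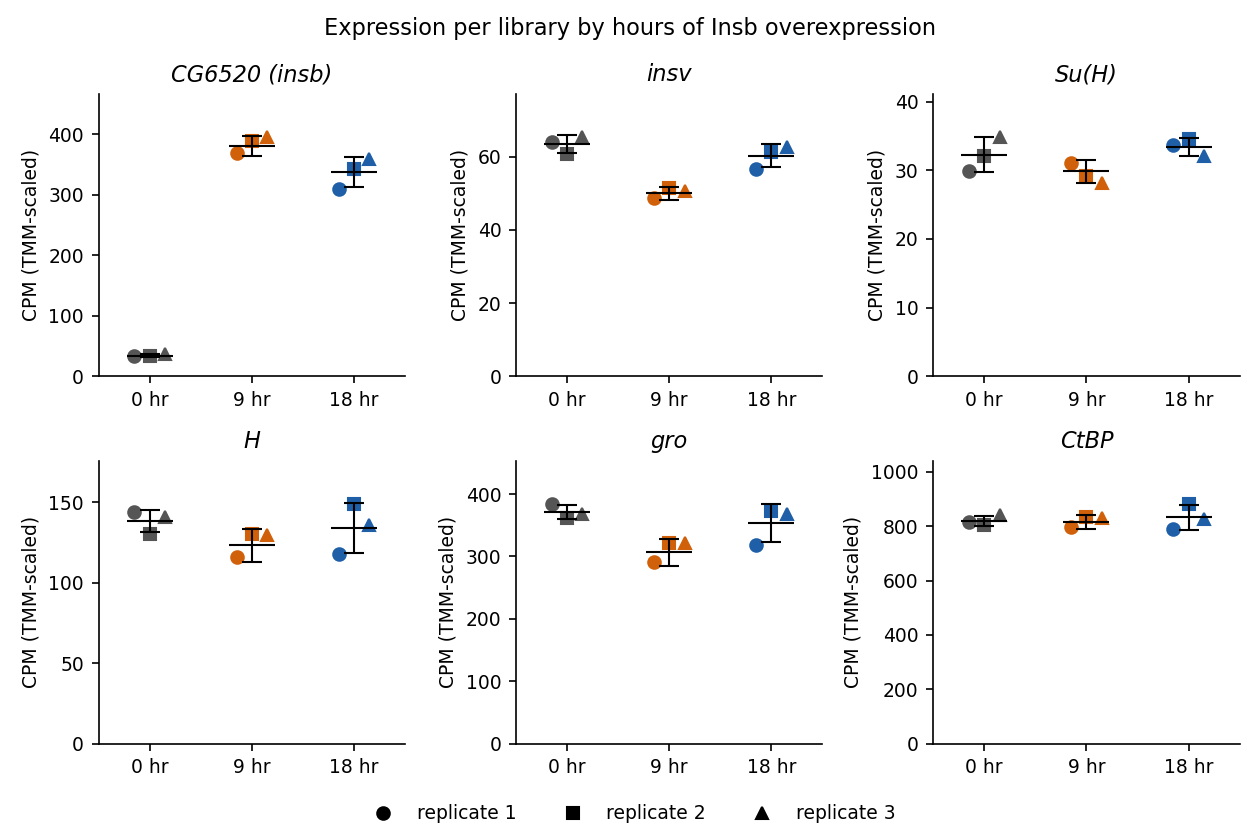
TMM-scaled CPM (vertical axes, each starting at 0) of each of the 6 genes in every library at 0, 9 and 18 hr of Insb overexpression. Symbols mark the replicates, and bars the mean ± SD with 9 hr replicates 2 and 3 averaged as 1 sample. *insb* lies between 32.5 and 36.9 CPM at 0 hr and between 310 and 396 CPM later. The mean of each other gene is lowest at 9 hr, but for *insv* alone is every 9 hr library below all others. *CtBP* stays between 790 and 881 CPM.

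*insv*, the BEN-domain co-repressor gene, was the single member besides *insb* that changed. It lies on the minus strand of chromosome 2L (FBgn0031434, dm6 2575280 to 2576997) with 2 exons that sum to 1654 bases. At 0 hr it was at 64.2, 60.8 and 65.5 CPM, at 9 hr at 48.8, 51.5 and 50.8 CPM, and at 18 hr at 56.8, 61.3 and 62.8 CPM. All 9 hr libraries were below all 0 hr libraries and below all 18 hr libraries, whereas 18 hr and 0 hr overlapped. *insv* averaged 50.0 ± 1.7 CPM at 9 hr (SD, n = 2) and 63.5 ± 2.4 CPM at 0 hr (SD, n = 3). This was a fall to 0.793-fold (95% interval 0.726 to 0.867, log2 fold change −0.33 ± 0.06 SE, adjusted p = 0.0101 in edgeR's quasi-likelihood test), short of the 1.5-fold threshold of the study. At 18 hr the log2 fold change against 0 hr was −0.08 (−0.20 to 0.05, adjusted p = 0.559). Between 18 hr and 9 hr it was 0.26 ± 0.06 SE, with an unadjusted p of 0.00147 and an adjusted p of 0.229 in edgeR, while DESeq2's Wald test gave an adjusted p of 0.0156. The fall at 9 hr passed in all 14 alternative fits, with adjusted p-values between 1.599e-05 (DESeq2) and 0.04499. Most of these fits counted the near-identical 9 hr pair as separate libraries. The fit without 9 hr replicate 1 had that pair alone at 9 hr. With the pair summed the log2 fold change was −0.34, with an adjusted p of 0.0422 in edgeR. Without 9 hr replicate 2 or replicate 3 the adjusted p was 0.0373 or 0.0450 in edgeR.

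*Su(H)* encodes the DNA-binding protein of the complex. It lies on the plus strand of chromosome 2L (FBgn0004837, dm6 15039488 to 15043334) with 4 exons that sum to 2950 bases. Its libraries read 29.8, 32.1 and 34.9 CPM at 0 hr, 31.0, 29.1 and 28.2 CPM at 9 hr, and 33.6, 34.5 and 32.0 CPM at 18 hr. The 9 hr and 18 hr libraries each overlapped those of 0 hr, and the 18 hr libraries lay above all 9 hr libraries. The log2 fold change was −0.13 at 9 hr against 0 hr (95% interval −0.30 to 0.04, adjusted p = 0.272) and 0.05 at 18 hr against 0 hr (−0.12 to 0.22, adjusted p = 0.816), by edgeR's quasi-likelihood test. At 18 hr against 9 hr it was 0.18 (0.01 to 0.35), with an unadjusted p of 0.0373 and an adjusted p of 0.434 in edgeR.

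*H* encodes Hairless, the adaptor between Su(H) and the co-repressors. It lies on the plus strand of chromosome 3R (FBgn0001169, dm6 20621938 to 20628915) with 5 exons that sum to 6004 bases. It read 143.9, 130.5 and 140.5 CPM at 0 hr, 116.0, 130.5 and 129.8 CPM at 9 hr, and 117.7, 148.8 and 135.8 CPM at 18 hr. The lowest 0 hr library and the highest 9 hr library had the same value, and the 18 hr libraries overlapped both groups. None of the 3 differences passed in edgeR's quasi-likelihood test: the log2 fold change was −0.14 at 9 hr against 0 hr (95% interval −0.35 to 0.07, adjusted p = 0.348), −0.04 at 18 hr against 0 hr (−0.25 to 0.16, adjusted p = 0.872) and 0.10 at 18 hr against 9 hr (−0.11 to 0.30, adjusted p = 0.734). These intervals hold changes of up to a log2 value of 0.35 in size, so a small change of *H* would not have been resolved.

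*gro* encodes Groucho, a WD-repeat co-repressor that Hairless recruits and that also serves bHLH-Orange proteins and many other repressors. It lies on the plus strand of chromosome 3R (FBgn0001139, dm6 26041736 to 26049911), has 17 exons in its merged model, and shares 181 exon bases, 4.06% of its exon length, with *Exo84* on the opposite strand. The 0 hr libraries read 384, 362 and 368 CPM, the 9 hr libraries 291.5, 322 and 322 CPM, and the 18 hr libraries 318.5, 373 and 369 CPM. All 9 hr libraries were below all 0 hr libraries, and the 18 hr libraries overlapped both. The log2 fold change at 9 hr against 0 hr was −0.25 ± 0.07 SE (95% interval −0.42 to −0.09), with an unadjusted p of 0.00755 and an adjusted p of 0.0573 in edgeR's quasi-likelihood test. The call of *gro* turned on the fit: the adjusted p was 0.0343 with the 6 compared libraries alone and 0.00998 in DESeq2's Wald test, but 0.114 with the near-identical 9 hr pair summed. At 18 hr the log2 fold change was −0.07 against 0 hr (−0.24 to 0.09, adjusted p = 0.697) and 0.18 against 9 hr (0.02 to 0.35, adjusted p = 0.429). *Exo84* averaged 35.3 ± 2.3 CPM at 9 hr (SD, n = 2) and 38.9 ± 2.0 CPM at 0 hr (SD, n = 3), with an adjusted p of 0.178 in edgeR; strand-specific counting is not given in the sources used here.

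*CtBP* encodes a co-repressor with the fold of a dehydrogenase, which Hairless and short-range repressors such as Snail recruit. It lies on the plus strand of chromosome 3R (FBgn0020496, dm6 13011649 to 13026275) with 10 exons in its merged model. It read 816, 805 and 841 CPM at 0 hr, 798, 836 and 832 CPM at 9 hr, and 790, 881 and 826 CPM at 18 hr. All groups overlapped, and the fitted fold was 1.00 at 9 hr against 0 hr (95% interval 0.924 to 1.085, adjusted p = 0.984), 1.01 at 18 hr against 0 hr (0.936 to 1.099, adjusted p = 0.901) and 1.01 at 18 hr against 9 hr (0.935 to 1.097, adjusted p = 0.910), by edgeR's quasi-likelihood test. On the log2 scale it had the narrowest intervals of the 6 genes.

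**Figure D2:**
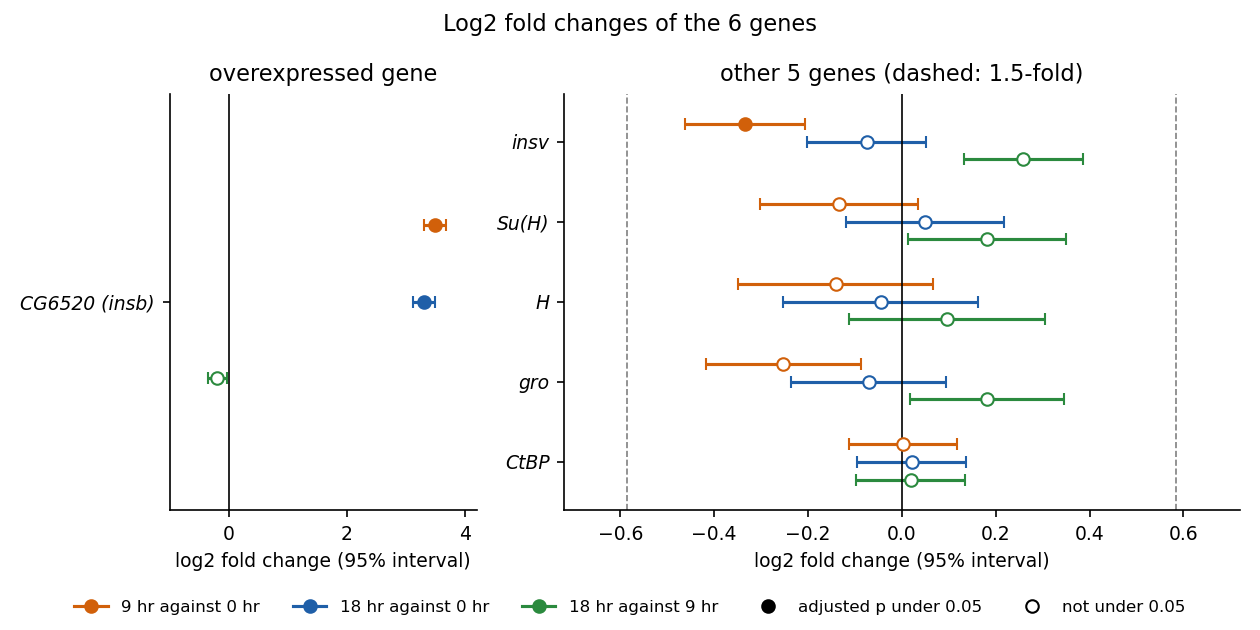
Log2 fold changes with 95% intervals of *insb* (left panel) and the other 5 genes (right panel) for 9 hr against 0 hr, 18 hr against 0 hr and 18 hr against 9 hr, with filled symbols for an adjusted p under 0.05 and dashed lines at a 1.5-fold change. *insb* reaches 3.49 and 3.30, and among the others *insv* at 9 hr (−0.33) has the single filled symbol.

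The counts over the 6 genes were read against those over all genes. At 9 hr against 0 hr, 2 of 6 passed the adjusted p, where 11.8% of all genes tested did, and 1 of 6, *insb*, also passed a 1.5-fold change, where 3.69% did. These shares are from the main fit, which kept the near-identical 9 hr pair as separate libraries. With that pair summed, 2 of 6 passed the adjusted p, and so did 422 of the 10985 genes then tested. At 18 hr against 0 hr, *insb* alone passed both rules, where 1.66% and 0.833% of all genes did. At 18 hr against 9 hr, none of the 6 passed, where 0.00926% of all genes did by either rule, and 4 of 6 had an unadjusted p under 0.05 in edgeR (*insb*, *insv*, *Su(H)* and *gro*), compared with 1171 of 10799 genes. At an adjusted p under 0.05 in DESeq2's Wald test, 1 of the 6 passed, *insv*, and 206 genes in all. Groups without overlap were common at 9 hr against 0 hr: 3 of 6 genes (*insb* higher, *insv* and *gro* lower) did not overlap, where 40.0% of all genes did not. At 18 hr against 0 hr 1 of 6 did not overlap, where 20.9% of all genes did not, and at 18 hr against 9 hr 3 of 6 did not (*insb* lower, *insv* and *Su(H)* higher), where 18.5% of all genes did not. The 9 hr and 18 hr comparisons share the 0 hr libraries. *insb* is the overexpressed gene, so its place in the counts against 0 hr came with the design. Among the other 5 genes, *insv* alone passed the adjusted p at 9 hr, and *insv* and *gro* alone did not overlap. At 18 hr against 0 hr none of these 5 passed, and all of them overlapped. Without *insb*, the median size of the log2 fold change over the other 5 genes was 0.14 at 9 hr against 0 hr, 0.05 at 18 hr against 0 hr and 0.18 at 18 hr against 9 hr, and over all genes it was 0.19, 0.14 and 0.12.

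The time of lowest *insv* coincided with other shifts in the brains. The counts below stand beside the 11.8% of all genes that passed at 9 hr against 0 hr in the main fit. The 5 type II neuroblast markers summed to 923 to 967 CPM at 0 hr, 755 to 766 CPM at 9 hr and 595 to 820 CPM at 18 hr, and 1 of the 5, *tll*, was lower at 9 hr in edgeR. The 6 INP markers summed to 471 to 503 CPM at 0 hr, 746 to 789 CPM at 9 hr and 798 to 987 CPM at 18 hr, and 3 of the 6 (*erm*, *ase*, *ham*) were higher at 9 hr, of which *ase* had an adjusted p of 0.0624 with the 9 hr pair summed. Of 5 neuron markers *Syt1* was higher at 9 hr (log2 fold change 0.34, adjusted p = 0.0416, edgeR; 0.115 with the 9 hr pair summed), and the list summed to 1139 to 1285 CPM at 9 hr and 1118 to 1213 CPM at 0 hr. Of 5 glia markers *wrapper* was lower at 9 hr (log2 fold change −0.60, adjusted p = 0.00357, edgeR). *alrm* went the other way without passing (log2 fold change 0.40, adjusted p = 0.0509, edgeR). *repo*, *moody* and *Gs2* had log2 fold changes of −0.07, −0.13 and −0.25 and did not pass. The glia list summed to 367 to 425 CPM at 9 hr and 387 to 490.3 CPM at 0 hr. Of the 8 heat response genes only *Hsp23* changed at 9 hr, by a log2 fold change of 1.06 (adjusted p = 0.0117, edgeR), and the list summed to 4978 to 9186 CPM at 0 hr, 6800 to 7766 CPM at 9 hr and 4722 to 8431 CPM at 18 hr. Within that list *Hsp70Aa* was highest in replicate 3 of the 0 hr group, at 419.9 CPM, although those larvae are labelled as not induced; without that library the log2 fold change of *insv* at 9 hr was −0.31, with an adjusted p of 0.0334 in edgeR. The 4 fat body markers summed to between 9.79 and 275 CPM at 9 hr and between 10.4 and 119 CPM at 0 hr, and none of them passed. The part of each of these in the fall of *insv* was not tested.

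To compare levels between genes, CPM was divided by the summed exon length. For *insb* the length is that of the resident gene, while its reads after induction include those of the transgene. The transcript length of the transgene is not given in the sources used here. In uninduced brains the order was *CtBP* at 127 ± 3 CPM per kb, *gro* at 83.3 ± 2.6, *insv* at 38.4 ± 1.5, *insb* at 32.2 ± 2.3, *H* at 23.0 ± 1.2 and *Su(H)* at 10.9 ± 0.9 CPM per kb (SD, n = 3). The Hairless adaptor and the DNA-binding protein of the complex were thus the least abundant transcripts per length, and the shared co-repressors the most abundant. No 2 neighbours in this order overlapped over the 3 libraries, at any of the 3 times, and the order was the same when the longest transcript replaced the summed exons. After 9 hr *insb* moved to the top at 359.5 ± 15.5 CPM per kb (SD, n = 2), above 98.5% of the tested genes with an exon length, where it was above 74.8% at 0 hr. The 5 other genes kept their order. At 18 hr *insb* was at 318 ± 24 CPM per kb, and *CtBP*, the next, at 129 ± 7 CPM per kb (SD, n = 3).

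**Figure D3:**
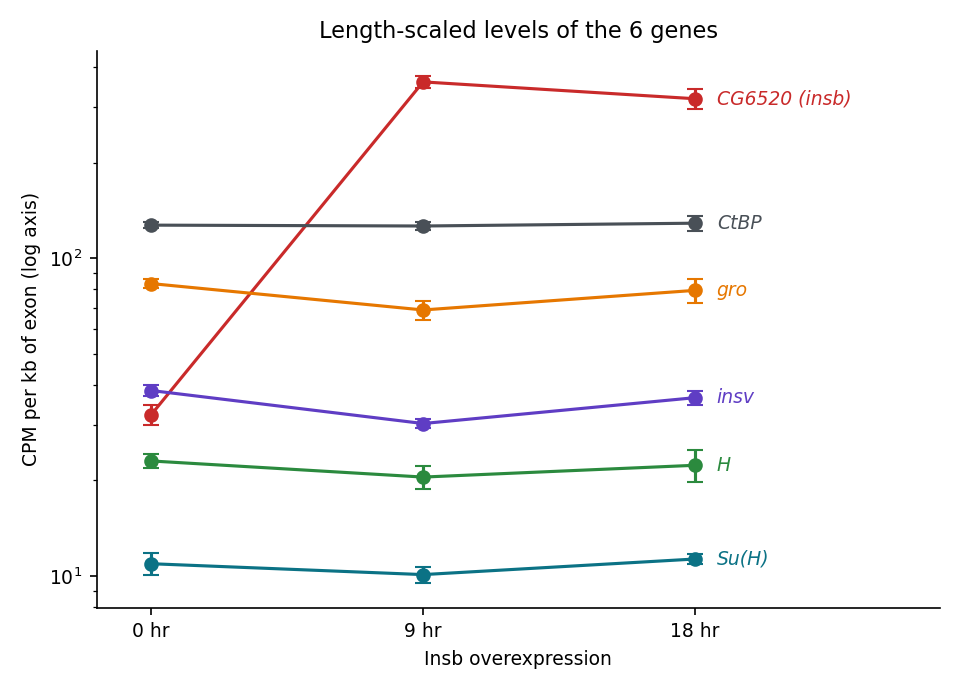
Mean CPM per kb of exon (log axis) of the 6 genes at 0, 9 and 18 hr of Insb overexpression, with SD bars (n = 3, and n = 2 at 9 hr). *insb* lies between *insv* and *H* at 0 hr (32.2 CPM per kb) and above *CtBP* at 9 hr (359.5) and 18 hr (318), while the lines of the other 5 genes do not cross.

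The ratio of *insb* to its partners within a library does not depend on scaling between libraries. The *insb* to *H* ratio per kb was 1.40 ± 0.10 at 0 hr (SD, n = 3), 17.6 ± 0.7 at 9 hr (SD, n = 2) and 14.3 ± 1.1 at 18 hr (SD, n = 3). The *insb* to *Su(H)* ratio was 2.95 ± 0.12, 35.7 ± 3.5 and 28.2 ± 2.8 at the same times. The *insb* to *insv* ratio, below 1 in every 0 hr library (0.800 to 0.880), was 11.8 to 12.2 at 9 hr and 8.53 to 8.93 at 18 hr, with no overlap between any of the 3 groups. For *Su(H)*, *H*, *gro* and *CtBP* the 18 hr and 9 hr ratios likewise did not overlap. The *Su(H)* ratios were 25.7 to 31.3 at 18 hr and 33.2 to 39.1 at 9 hr. The *CtBP* ratios were 2.36 to 2.646 at 18 hr and 2.817 to 2.897 at 9 hr. *insb* itself was lower in every 18 hr library than in every 9 hr library, and the separation was not particular to any of these partners. How many of all genes would separate in this way was not tested. All these values are ratios of RNA, with the transgene included, and say nothing of the proteins.

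The partners that work with these proteins were then read from lists, beside the 11.8% of all genes that passed at 9 hr against 0 hr and the 1.66% that passed at 18 hr against 0 hr. Both shares are from the main fit. With the 9 hr pair summed, 422 and 73 of 10985 genes passed in these comparisons. Of 4 genes that work with Su(H) in activation, 1 was lower at 9 hr and none changed at 18 hr. That gene was *N*, encoding the Notch receptor, which read 493, 454 and 475 CPM at 0 hr, 310.3, 356 and 357 CPM at 9 hr, and 399.7, 426 and 458 CPM at 18 hr. All its 9 hr libraries lay below all others, and the log2 fold change at 9 hr against 0 hr was −0.47 ± 0.07 SE (adjusted p = 0.00818, edgeR; 0.029 with the 9 hr pair summed). *mam* (Mastermind), *nej* (the CBP histone acetyltransferase) and *Bx42* (the SKIP co-factor) did not pass at either time. Of 10 chromatin proteins that act in co-repression, among them *Rpd3* (a histone deacetylase), *Sin3A*, *Smr* and *CoRest*, 1 was higher at 9 hr and none changed at 18 hr, counts near the shares of all genes. The one was *Nap1*, a histone chaperone gene, at 1123 ± 50 CPM at 9 hr (SD, n = 2) and 863 ± 34 CPM at 0 hr (SD, n = 3), with a log2 fold change of 0.37 ± 0.05 SE (adjusted p = 0.00675, edgeR).

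The 10 bHLH-Orange genes encode repressors, most of which recruit Groucho, and most of those in the E(spl) complex are direct targets of Su(H). At 9 hr 3 of them were higher and 1 lower than at 0 hr, and the same 4 passed at 18 hr, with the 0 hr libraries shared, where 11.8% of all genes passed at 9 hr and 1.66% at 18 hr. *E(spl)mgamma-HLH* read 49.1, 47.8 and 54.6 CPM at 0 hr, 78.4, 78.0 and 81.9 CPM at 9 hr, and 81.9, 88.1 and 92.7 CPM at 18 hr. Every induced library was above every 0 hr library, and the log2 fold change was 0.65 ± 0.07 SE at 9 hr (adjusted p = 0.00217, edgeR) and 0.79 ± 0.07 SE at 18 hr (adjusted p = 0.00239, edgeR). *E(spl)mbeta-HLH* was at 82.3 ± 6.2 CPM at 18 hr and 46.9 ± 5.9 CPM at 0 hr (SD, n = 3 each), with log2 fold changes of 0.43 at 9 hr and 0.81 at 18 hr. *E(spl)m8-HLH* had log2 fold changes of 0.51 at 9 hr and 0.75 at 18 hr, whereas *E(spl)m5-HLH*, a weakly expressed gene, was lower, at 2.42, 2.87 and 3.07 CPM at 9 hr and 5.81, 5.49 and 5.76 CPM at 0 hr (log2 fold change −1.03 ± 0.17 SE, adjusted p = 0.0102, edgeR). With the near-identical 9 hr pair summed, the adjusted p was above 0.05 at 9 hr for *E(spl)mbeta-HLH* (0.0815) and *E(spl)m8-HLH* (0.0713), and at 18 hr for *E(spl)m8-HLH* (0.0561) and *E(spl)m5-HLH* (0.0910). *dpn*, *h* and *Hey* and the other E(spl) repressors of the list did not pass. The 8 genes of the Bearded family, small proteins that inhibit Neuralized and lie under Su(H) control, did not pass at either time: 0 of 8, with a median log2 fold change of −0.38 at 9 hr and −0.00497 at 18 hr, where the medians over all genes were 0.00297 and 0.0126.

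**Figure D4:**
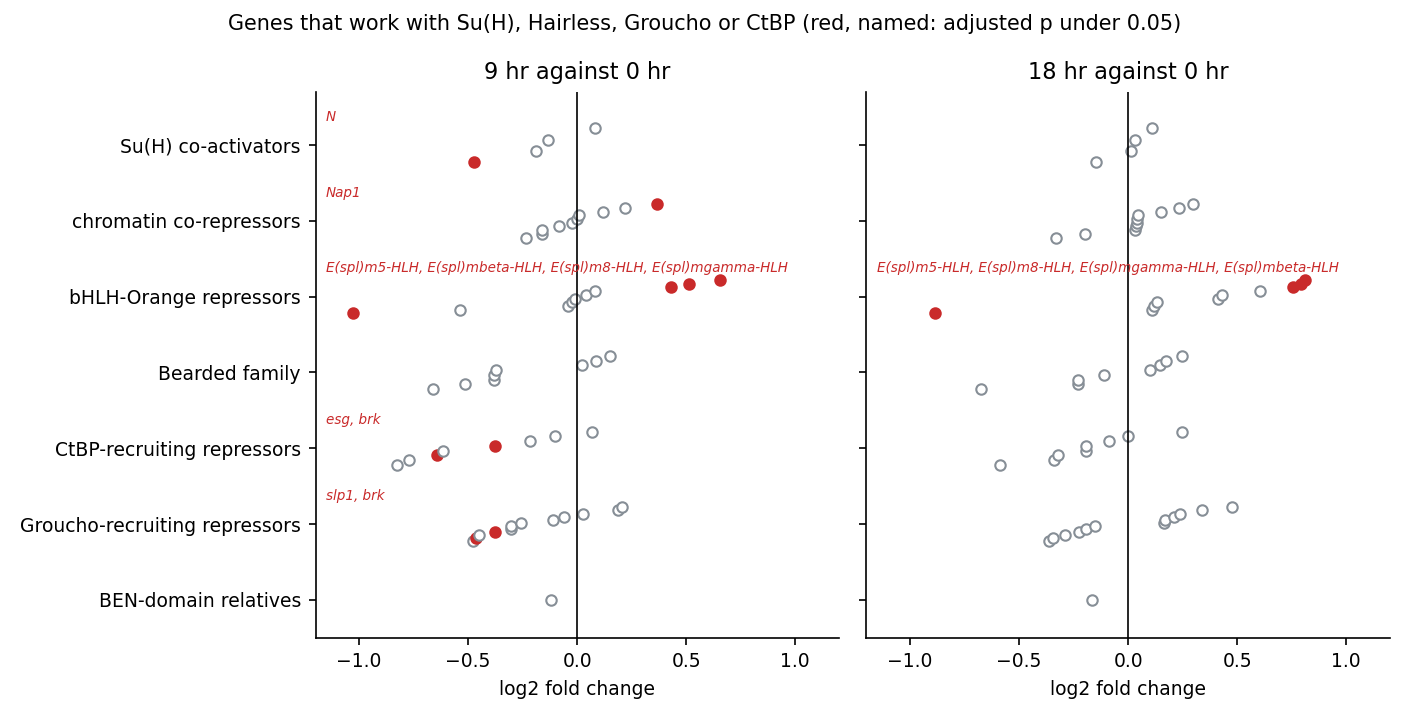
Log2 fold changes at 9 hr against 0 hr (left) and 18 hr against 0 hr (right) of the tested genes of 7 lists, one row of points per list. Filled red points and red names mark an adjusted p under 0.05 in edgeR: 4 bHLH-Orange genes pass at both times, while *N*, *Nap1*, *esg*, *brk* and *slp1* pass at 9 hr and not at 18 hr, and at 18 hr against 9 hr none of these 5 passes in edgeR, while *N*, *Nap1* and *esg* pass in DESeq2.

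Of 8 sequence-specific repressors that recruit CtBP, 2 were lower at 9 hr, where 11.8% of all genes passed, and none changed at 18 hr, where 1.66% did. *esg*, a Snail family gene, read 45.1, 44.9 and 45.1 CPM at 9 hr and 69.2, 72.1 and 69.8 CPM at 0 hr, with no overlap and a log2 fold change of −0.64 ± 0.08 SE (adjusted p = 0.00421, edgeR). *brk* (Brinker, a repressor of Dpp targets that also recruits Groucho) was at 42.4 ± 2.3 CPM at 9 hr (SD, n = 2) and 55.8 ± 4.2 CPM at 0 hr (SD, n = 3), with a log2 fold change of −0.38 ± 0.09 SE (adjusted p = 0.0298, edgeR; 0.0802 with the 9 hr pair summed). The Snail family genes *sna* and *wor* did not pass; *sna* read 82.4, 83.2 and 79.9 CPM at 9 hr and 125.5, 125.9 and 124.5 CPM at 0 hr, and its spread over the 18 hr libraries, at 59.8, 99.9 and 137.4 CPM, entered the common fit (log2 fold change −0.61 ± 0.24 SE, adjusted p = 0.135, edgeR). Of 12 further repressors that recruit Groucho, *brk* among them, 2 were lower at 9 hr and none changed at 18 hr, which is near those shares of all genes. The other one was *slp1* (Sloppy paired, a forkhead protein), at 39.0 ± 3.5 CPM at 9 hr (SD, n = 2) and 52.7 ± 2.4 CPM at 0 hr (SD, n = 3), with a log2 fold change of −0.46 ± 0.10 SE (adjusted p = 0.0233, edgeR; 0.0826 with the 9 hr pair summed). Among genes of the ELBA insulator complex, *Elba2*, which encodes a BEN-domain protein as *insv* does, was at 12.4 ± 0.4 CPM at 9 hr (SD, n = 2) and 13.3 ± 1.1 CPM at 0 hr (SD, n = 3) and did not pass, and *Elba3*, which encodes an adaptor of that complex without such a domain, had 0 or 1 count in each library.

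The genes whose profiles were most like each of the 6 over the 9 libraries were ranked by Pearson's r of log2 CPM among the 9249 tested genes that averaged 1 CPM or more. The points share their libraries and their scaling, and the r is given as a description. For *insb* the closest were the noncoding RNA *CR44905* (0.997), *CG1550* (*TTLL12*, 0.996) and *Lim3* (0.994), a LIM-homeodomain gene, and these values rest on the gap between the 0 hr libraries and the 6 induced ones. For *insv* the closest was *N* (0.977), then *CLIP-190* (0.975) and *Psc* (0.973), a Polycomb group gene, where the gene ranked 100 stood at 0.898. For *Su(H)* they were *FRG1* (0.957), *Flo1* (0.937) and *CG2091* (*Dcps*, 0.931). For *H* they were *CG4266* (*Isha*, 0.991), *yata* (0.982) and *w* (0.980), and for *gro* they were *Wnt5* (0.985), *tara* (0.984) and *pcs* (0.984). For *CtBP* they were *Cdc5* (0.975), *CG30122* (0.973) and *CG9776* (0.972). Among the 6 themselves the highest values were those of *insv* with *gro* (0.930), *H* with *gro* (0.885) and *H* with *CtBP* (0.785), and *insb* ran against *insv* (−0.66) and *gro* (−0.60). The gene ranked 100 stood at 0.906 for *H*, 0.915 for *gro* and 0.862 for *CtBP*. The values of *H* with *gro* and with *CtBP* were thus below that rank for both partners.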

How the data were processed

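RNA was extracted from pooled *brat*-null larval brains, with biological triplicates at each time point per the methods of the study. For alignment to dm6 the authors used HISAT2 (version 2.1.0), for quantification StringTie (1.3.4), for read quality FastQC (0.11.3) and for their own tests DESeq2 (1.20.0). What they deposited is a table of raw counts, with a whole number for each gene and library. The annotation version and the use of strand in counting are not given in the sources used here. Of 14560 gene names, 11086 were current symbols, 3426 were older ones and 48 were not matched; coordinates and exon lengths are those of an Ensembl annotation of dm6.

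Genes were filtered with filterByExpr (10799 kept), TMM-scaled, and a single model of the 3 groups was fitted to the 9 libraries with the quasi-likelihood test of edgeR version 4.0.16 in R version 4.3.3, with p-values adjusted over all genes tested (biological coefficient of variation 0.239). Changed means an adjusted p under 0.05; the 1.5-fold threshold of the study was applied as a second rule. Intervals are 95% intervals of the fit. The fit was tested on simulated data. The 6 genes and all lists were chosen with earlier results of these data known. The genes named are these 6, the 3 most like each of them, the list genes that passed, and a few others of each list. Alternatives were RLE and upper-quartile scaling, no filter, a minimum of 10 counts in every library, DESeq2 version 1.42.0, fits of just the 6 libraries compared, a block on replicate number, the near-identical 9 hr pair summed, and each replicate left out in turn.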

Additional observations from a re-analysis of the deposited data

How the results depend on the processing

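The directions and calls of *insb* at 9 hr and 18 hr and of *insv* at 9 hr held in all 14 alternative fits of each comparison. Most of these fits kept the near-identical 9 hr pair as separate libraries. The number of the 6 genes that changed at 9 hr against 0 hr was 2, and 1 with the 1.5-fold threshold but 3, with *gro*, in DESeq2's Wald test and with the compared libraries only; at 18 hr against 9 hr it was 0, and 1 in DESeq2. The number of all genes that changed depended more on the fit. At 9 hr against 0 hr it was 1279, and 398 with the 1.5-fold threshold, 422 with the 9 hr pair summed, 1981 in DESeq2 and 419 to 795 with one replicate left out. At 18 hr against 0 hr it was 179, and 90 with the threshold, 73 with the pair summed, 31 with the compared libraries only, 745 in DESeq2 and 47 to 282 with one replicate left out. At 18 hr against 9 hr it was 1, and 0 with the compared libraries only, 206 in DESeq2 and 0 to 4 with one replicate left out. Deviations of same-numbered libraries of different groups correlated between −0.28 and 0.39. For differently numbered libraries the range was −0.40 to 0.52, the highest being 0 hr replicate 3 with 18 hr replicate 2. By the methods the groups were dissected on the same day, but a replicate number is not said to mark a shared culture, so the numbers were not taken as pairs. With the replicate block the counts were 909 at 9 hr against 0 hr, 78 at 18 hr against 0 hr and 0 at 18 hr against 9 hr, and the block changed no call of the 6 genes. Among the list genes that passed, it put the adjusted p above 0.05 at 9 hr for *E(spl)mbeta-HLH* (0.0528), *slp1* (0.0563), *E(spl)m8-HLH* (0.0610), *brk* (0.0632) and *Syt1* (0.0838), at 18 hr for *pnt* (0.0600), *E(spl)m8-HLH* (0.0718) and *E(spl)m5-HLH* (0.114), and at 18 hr against 9 hr for *D* (0.123). With one replicate left out, the 9 hr fall of *insv* had adjusted p-values of 0.0269 to 0.0450 in edgeR and that of *gro* 0.103 to 0.186. Among the list genes, *E(spl)m8-HLH* at 9 hr passed in 0 of 6 such fits, as did *Syt1*, *brk* in 1, *slp1* in 2 and *E(spl)mbeta-HLH* and *ase* in 3, and *E(spl)m5-HLH* at 18 hr passed in 1 and *E(spl)m8-HLH* in 3. Each of the 6 genes had at least 753 counts in every library.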
